A study of Mus musculus with 4 samples.

Results

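The repeat-rich miRNA genes described here are the rows of a mouse small RNA table whose symbols start with Mir297, Mir466, Mir467 or Mir669. The rule found 42 genes among the 643 miRNA genes of the table and its 2976 rows in all. There were 14 miR-467, 21 miR-669 and 7 miR-466 genes, and no miR-297 gene had a row. RefSeq lists 81 genes with these names, and the other 39, all 6 of miR-297 among them, were not analysed here.

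The study measured small RNA in 4 libraries of 1 group, with no second condition. The cells were Tbx18-expressing stroma from around the wolffian duct, the epithelial tube that gives rise to the ureteric bud, taken from CD1 embryos at E10.5. All 4 libraries carried the genotype Tbx18-Cre;CAG-tdTomato, in which Cre driven from Tbx18 switches on a red fluorescent reporter in a cell and its descendants, so the sort also takes cells that have since lost Tbx18. The labels call the libraries wildtype and give no source embryo or pool for any of them, so spreads and p-values below cover only how these 4 libraries vary, and that variation may be technical.

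MicroRNAs are short RNAs cut from hairpin precursors, and bases 2 to 8 of the mature strand, the seed, pair with target mRNAs. The miR-297, miR-466, miR-467 and miR-669 families are rodent miRNAs built from tandem copies of a repeat-rich unit inside an intron of Sfmbt2, a Polycomb-group gene that is imprinted and expressed from the paternal allele in early embryos and placenta. The cluster is known from embryonic stem cells and trophoblast. By the naming convention, genes that share a letter and differ only in the number after the hyphen, such as Mir467a-1 and Mir467a-9, are separate genomic copies that give the same or nearly the same mature miRNA.

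Of the 42 genes, 40 lay in Sfmbt2 on chromosome 2 of GRCm38, from 10467495 to 10518279, a span of 50.8 kb. All 40 were on the plus strand, that of the host, and all fell in an intron, which is intron 11 in the principal GENCODE transcript with its 23 exons. The other 2 were Mir467f on chromosome 11 at 69635400 to 69635519, minus strand, in an intron of the plus-strand gene Fxr2, and Mir466i on chromosome 13 at 17747473 to 17747593, plus strand, in an intron of the minus-strand gene Cdk13. RefSeq mature sequences (GRCm38.p6) were matched for 2 of the 42 genes, Mir467f and Mir466i. They are printed with 2 relatives that had no row, miR-466k and miR-669n, as examples of alternating CA and UG runs. The seed is in capitals and each strand is written 5′ to 3′.
mmu-miR-467f, chr11:69635419-69635439, minus strand: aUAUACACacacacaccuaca
mmu-miR-466i-3p, chr13:17747552-17747573, plus strand: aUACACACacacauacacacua
mmu-miR-466k, chr3:85467396-85467418, plus strand: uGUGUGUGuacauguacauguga
mmu-miR-669n, chr3:115979905-115979924, plus strand: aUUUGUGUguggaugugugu
No 2 of these share a seed, and no other mature sequence of the RefSeq table used carries any of the 4 seeds. Genes in Sfmbt2 had no mature sequence there, so their seeds could not be compared. Mature strands were searched as written for CACACACA and for its reverse complement UGUGUGUG. The first was in 4 of 1738 mature sequences (0.230%), all 4 from these families, and the second in 7 (0.403%), of which 2 were from these families. Of the 8 mature sequences available for the families, 6 held either motif, against 0.633% of the 1738. The sequences of miR-466j and miR-467h held neither. All 8 come from genes outside Sfmbt2. Of these genes Mir466i and Mir467f were listed at 0, and the others had no row, so their reads are not known. A match here describes the letters only.

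Values are TPM, a length-corrected read level scaled over all genes of a library, of which the table holds part. The table's values sum to 49401, 72205, 71089 and 23340 TPM in libraries 1 to 4, so a level in TPM also moves with the part of each library outside the table, and library 4 is lowest in that sum. Reads per gene were recovered from them, and miRNA genes held 883201, 1087240, 978210 and 146255 reads in libraries 1 to 4. Library 4 is therefore the least precise. A single read on an 87 nt gene is worth 0.0449, 0.0559, 0.06 and 0.107 TPM in libraries 1 to 4, and a count of 0 allows up to 3 reads, or 0.135, 0.168, 0.18 and 0.32 TPM. Such limits and all intervals below cover counting error only. As a check of the sort, the 6 listed mesenchymal genes, led by Mir199a-1, summed to 331 to 2373 TPM and the 6 epithelial genes to 43.5 to 157 TPM, while Mir214 and Mir199a-2 were listed at 0. The endothelial gene Mir126a was at 251 to 528 TPM, striated muscle to 119 to 341, liver Mir122 to 23.5 to 144 and blood genes to 1.49 to 14.9 TPM. Mir223, Mir486, Mir124a-1 and Mir1a-2 of these lists were listed at 0. A listed 0 is no evidence that a marker was absent from the cells. In library 4 the mesenchymal sum was 331 TPM, with Mir126a at 251 TPM and striated muscle at 224 TPM, so these sums lay close together there. The 3 lists hold 6, 1 and 5 genes, and sums over unlike lists do not measure the shares of cell types. Library 3 stood apart in the neural list, led by Mir9-3, at 2890 TPM with 348, 35.7 and 80.6 TPM in libraries 1, 2 and 4, and there it was above the mesenchymal sum of 1444 TPM.

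The repeat-rich genes were low and few of them carried reads. Together they held 216, 509, 408 and 81 reads in libraries 1 to 4, which is 1214 reads or 0.0392% of all miRNA reads. Reads were found on 16 of the 42 genes in at least 1 library (38.1%), where the share over all 643 miRNA genes was 68.4%. The other 26 were listed at 0 in all 4 libraries, or 61.9% against 31.6% of all miRNA genes. Reads in all 4 libraries were found for 8 genes (19%), with 49.6% over all miRNA genes. A level of at least 1 TPM in all 4 libraries was reached by 1 gene, Mir467a-9 (2.38%), and by 33.1% of all miRNA genes. A mean of at least 1 TPM was reached by 4 genes, Mir467a-9, Mir467c, Mir467d and Mir669a-12, with 42.5% over all miRNA genes, and at least 10 reads in every library by 2, Mir467a-9 and Mir467c, with 34.1% over all. The median gene mean was 0 TPM here and 0.315 TPM over all miRNA genes. These shares are descriptions with no test, and no gene of the 42 overlapped another named row.

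Mir467a-9 (gene ID 100526554, chromosome 2 at 10498393 to 10498475) led the set. Its level was 5.61, 19.0, 14.2 and 4.14 TPM in libraries 1 to 4, from 119, 325, 226 and 37 reads, with a mean of 10.7 ± 7.09 TPM (SD, n = 4). Libraries 2 and 3 were high and libraries 1 and 4 low on this scale. It ranked 166 of 643 miRNA genes by mean TPM and first of the 42 in each library.

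Next came 2 other miR-467 genes, which carry their own letters and no copy number. Mir467c (gene ID 100124487, 10473931 to 10474027) was at 0.968, 2.11, 2.63 and 1.53 TPM, a mean of 1.81 ± 0.72 (SD, n = 4). Mir467d (gene ID 100124447, 10507630 to 10507714) was at 1.24, 1.60, 1.78 and 0.982 TPM, a mean of 1.40 ± 0.358 (SD, n = 4). In TPM, Mir467d had the smallest SD relative to its mean of the 8 genes with reads in every library, and its values and those of Mir467c overlapped. The other miR-467 genes were sparse or listed at 0. Mir467a-3 was at 0.283, 0.821, 1.26 and 0.224 TPM. Mir467a-5 had 2 reads, in library 4, and Mir467a-1 and Mir467a-10 had 1 read each. Mir467b, Mir467f and 5 copies of Mir467a (numbers 2, 4, 6, 7 and 8) were listed at 0.

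The miR-669 genes followed. Mir669a-12 (gene ID 100526496, 10503791 to 10503877) was at 1.08, 1.73, 2.28 and 0.426 TPM, a mean of 1.38 ± 0.802 (SD, n = 4), and its range overlapped that of Mir467d. Mir669a-4 (gene ID 100526535) was at 0.18, 0.895, 0.899 and 0.853 TPM, from 4, 16, 15 and 8 reads. Library 1 was low for it and the other 3 lay close together. Mir669e (gene ID 100316806) was at 0.0657, 1.51, 0.307 and 0.078 TPM, from 2, 37, 7 and 1 reads, so that 1 library carried most of it. Its mean was 0.491 TPM, and 0.15 TPM without library 2. Mir669m-1 was at 0.2, 0.397, 0.479 and 0.0947 TPM, and Mir669h had 0, 4, 5 and 1 reads. The other 16 of the 21 miR-669 rows were listed at 0.

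The miR-466 genes were near the limit of detection. All 7 together gave 4, 4, 9 and 0 reads in libraries 1 to 4, spread over Mir466b-3, Mir466g and Mir466n with 5 reads each and Mir466o with 2. Their sum was 0.179, 0.231, 0.564 and 0 TPM. A group sum this small does not order the 4 libraries. Mir466, Mir466i and Mir466b-2 were listed at 0. For miR-466 as for the other families, a listed 0 is no evidence that the miRNA was absent from the cells, since the sources used here do not say how reads that fit several places were counted.

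**Figure D1:**
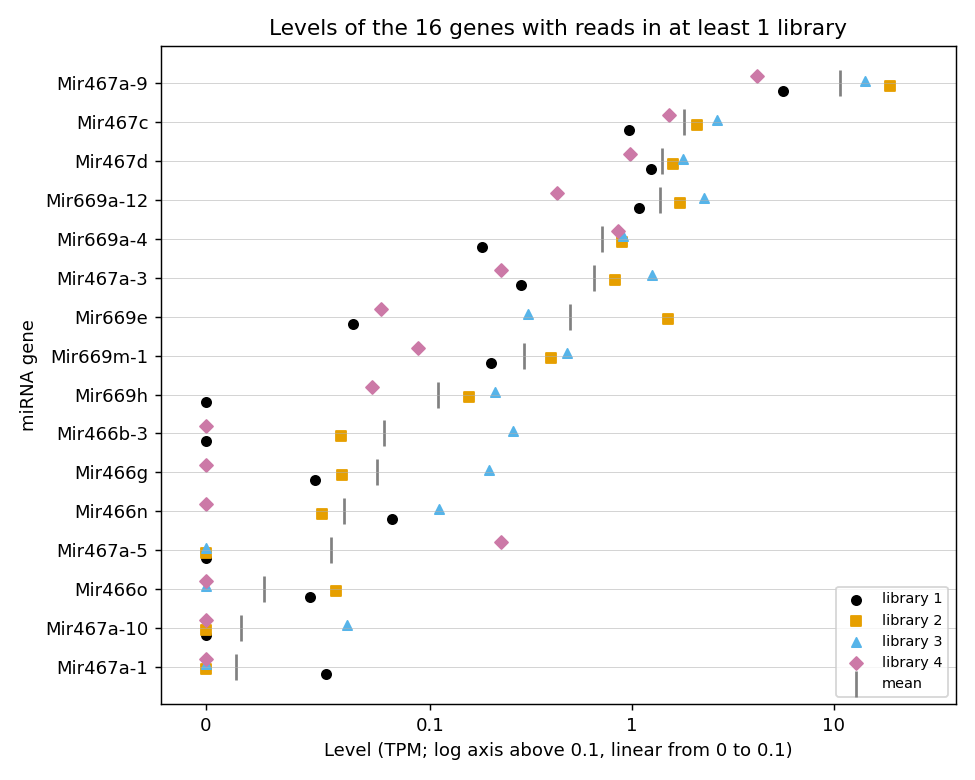
Level in TPM (horizontal axis, log above 0.1 and linear below) of the 16 genes with reads in at least 1 library, ordered by mean, with 1 symbol per library and a grey bar at the mean. Mir467a-9 lies above every other gene in each of the 4 libraries, and the miR-466 genes lie at or below 0.258 TPM.

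The listed reads of repeated names were mostly on single copies. How reads that fit several near-identical copies were assigned is not known here, so the split between copies given next is that of the table and may not be that of the loci. Of the 753 reads on the 10 Mir467a copies, 707 (93.9%) were on Mir467a-9, and in the separate libraries this share was 94.4%, 95.9%, 91.5% and 90.2%. The lowest of these, in library 4, has a 95% Wilson interval of 77.5% to 96.1%, which holds the other 3 values. The 11 Mir669a copies carried 140 reads, all on Mir669a-12 (97 reads) and Mir669a-4 (43 reads), with 9 copies at 0. Mir669a-12 took 85.7% of them in library 1 (24 of 28; Wilson interval 68.5% to 94.3%), 66% in library 2, 71.7% in library 3 and 33.3% in library 4 (4 of 12; 13.8% to 60.9%). The intervals of libraries 1 and 4 did not overlap. Both Mir466b rows together held 5 reads, all on Mir466b-3, and both Mir669p rows were at 0.

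A numbered copy was not the only kind of row at 0. Of the 26 genes with a copy number 17 were listed at 0 (65.4%), and so were 9 of the 16 without one (56.2%). Among the 601 other miRNA genes these shares were 27.4% of 84 numbered copies and 29.8% of 517 genes without a number. A name without a copy number does not show that a sequence is unique. Mature sequences were matched for only 2 of the 42 genes, so these shares do not tell rows with shared sequence from others. Summed by name, the 42 genes gave 21 names, of which 11 had reads and 10 had none. The summed Mir467a copies reached 5.94, 19.9, 15.5 and 4.58 TPM and the summed Mir669a copies 1.26, 2.63, 3.18 and 1.28 TPM, the 2 names at or above 1 TPM in every library. Within a name, the copy that a read was listed under changes this sum only through gene length. Length was 73 or 83 nt for Mir467a copies and 87 or 97 nt for Mir669a copies. Reads that were left out or listed under another name would also change it.

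Along the intron, the Mir467a copies from number 2 to 10 follow each other at 2413 to 4880 bp, with a median of 2463 bp. Mir467a-3 and Mir467a-9 are 14.7 kb apart, and between their starts lay 11 rows, 5 of miR-467 and 6 of miR-669, of which 1 had reads, the 2 reads of Mir467a-5. Genes with reads in all 4 libraries were found from Mir669e, at 97 kb from the annotated start of Sfmbt2, to Mir669m-1 at 142 kb, on both sides of this stretch. No other miRNA row of the table lay within Sfmbt2, and the level of the host mRNA is not measured by a small RNA table. The 2 genes outside Sfmbt2 had no reads in any library. Taking 3 reads per library as the limit, the Sfmbt2 genes held at least 72-fold, 170-fold, 136-fold and 27-fold as many reads as those 2. This sets the sum of 40 genes against that of 2, and 24 of the 40 (60%) were also listed at 0. A listed 0 therefore does not set the 2 genes apart.

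**Figure D2:**
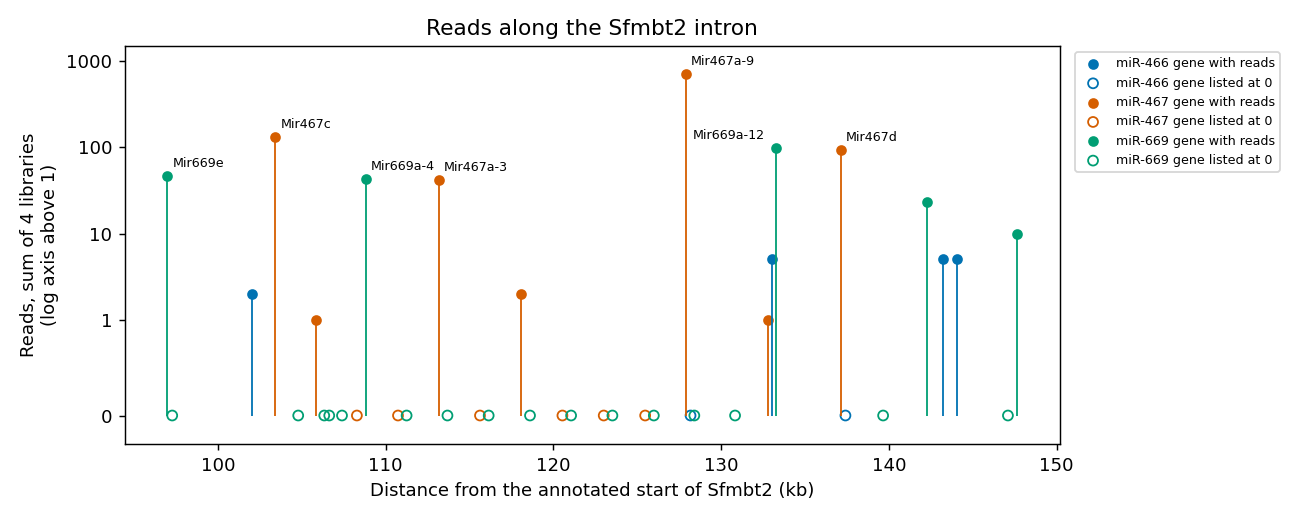
Reads summed over 4 libraries (vertical axis, log above 1) of the 40 genes in the Sfmbt2 intron against distance from the annotated Sfmbt2 start in kb; filled circles are genes with reads and open circles at 0 are genes with none. Mir467a-9 stands at 707 reads, and the 11 rows between Mir467a-3 and Mir467a-9 hold 2 reads.

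The split between families was nearly constant from library to library. miR-467 genes took 81.9%, 80.4%, 79.7% and 81.5% of the reads of the set in libraries 1 to 4, with Wilson intervals from 76.3% to 86.5% in library 1 and from 71.7% to 88.4% in library 4. miR-669 genes took 16.2%, 18.9%, 18.1% and 18.5%, and miR-466 genes 1.85%, 0.786%, 2.21% and 0%, where 0 of 81 reads allows a share of up to 3.70% by the limit of 3 reads and 4.53% by the Wilson bound. For miR-467 and miR-669 these values differed by less than the counting error of any 1 library. In TPM, miR-467 summed to 8.15, 23.6, 19.9 and 7.09 and miR-669 to 1.52, 4.69, 4.17 and 1.53 in libraries 1 to 4, with means of 14.7 ± 8.31 and 2.98 ± 1.69 TPM (SD, n = 4). Pairs of families were compared inside each library by log2 of the quotient of their summed TPM, with 0.1 TPM added to both sums. miR-467 exceeded miR-669 by 2.26 ± 0.09 log2 units, higher in 4 of 4 libraries. It exceeded miR-466 by 5.53 ± 0.73, and miR-466 against miR-669 gave -3.28 ± 0.77, both with the same sign in 4 of 4 libraries (SD, n = 4). Flipping the signs of the 4 library values, as an exact permutation test (two-sided), gave p = 0.125 for each of the 3 ratios, the smallest that 4 libraries allow, and 0.125 after Benjamini-Hochberg adjustment over the 3, so no ratio could pass 0.05. Both ratios with miR-466 depend on the pseudocount, since that family had no reads in library 4.

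**Figure D3:**
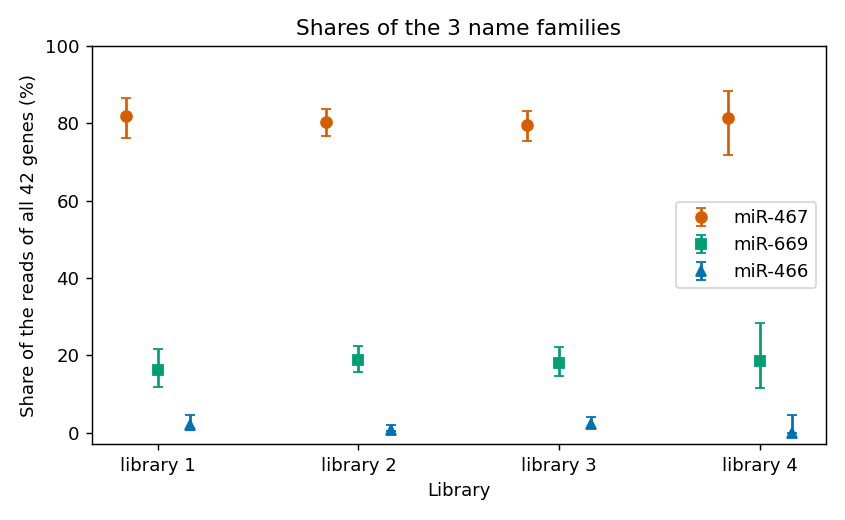
Share of the reads of all 42 genes (vertical axis, percent) taken by miR-467, miR-669 and miR-466 genes in each library, with 95% Wilson intervals for counting error. The miR-467 share lies between 79.7% and 81.9% and the miR-669 share between 16.2% and 18.9%.

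Within the families the split was less even. Mir467a-9 took 67.2% of the miR-467 reads in library 1, 79.5% in library 2, 69.5% in library 3 and 56.1% in library 4. The Wilson interval of library 2, 75.3% to 83.1%, did not overlap that of any other library, of which library 3 came nearest at 64.3% to 74.3%. Mir467c took 13.6%, 10.3%, 15.1% and 24.2% of the same reads, and the interval of library 4 (15.5% to 35.8%) lay above that of library 2 (7.69% to 13.6%). Mir467d took 15.3%, 6.85%, 8.92% and 13.6%, with library 1 (10.7% to 21.3%) above library 2 (4.78% to 9.72%). Mir669e took 38.5% of the miR-669 reads in library 2 (29.4% to 48.5%) and 5.71%, 9.46% and 6.67% in libraries 1, 3 and 4. The interval of library 2 lay above those of libraries 1 and 3 and overlapped that of library 4 (1.19% to 29.8%).

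The order of the libraries depended on the scale. Summed TPM of the 42 genes was 9.85, 28.5, 24.7 and 8.62 in libraries 1 to 4, a mean of 17.9 ± 10.2 (SD, n = 4), with library 4 lowest, and 15.7 TPM without library 3. As a share of miRNA reads the same genes took 0.0245%, 0.0468%, 0.0417% and 0.0554%, with library 4 highest. Library 1, with a Wilson interval of 0.0214% to 0.0279%, lay below all others. The interval of library 4, 0.0446% to 0.0688%, overlapped those of library 2 (0.0429% to 0.0511%) and library 3 (0.0379% to 0.046%). Of the 8 genes with reads in every library, 7 had their lowest share of miRNA reads in library 1, where 24.1% of the 319 miRNA genes with reads in every library did. The exception was Mir467d, lowest in library 2. Of the 7, only Mir467a-9 had a Wilson interval in library 1 below those of all other libraries. For each of the rest, the library 1 interval overlapped that of at least 1 other library. The count of 7 thus rests mostly on differences within counting error, and it was not tested against the share of the 319. Library 4 held the highest share for 3 of the 8, Mir467c, Mir467d and Mir669a-4, against 36.4% of the 319. In TPM library 4 was the lowest for 5 of the 8, with 73.4% over the 319, and the highest for none, with 7.52%. Without Mir467a-9 the remaining 41 genes took 0.011%, 0.0169%, 0.0186% and 0.0301% of miRNA reads, again lowest in library 1 and highest in library 4. Pluripotent and germ cell miRNAs, led by Mir302b, took 0.00215%, 0.0218%, 0.0471% and 0.109% of miRNA reads in libraries 1 to 4, lowest in library 1 and highest in library 4 on the same scale. In TPM they summed to 1.04, 16.1, 33.8 and 20.6, lowest in library 1, where the 42 genes were lowest in library 4. Of the 10 listed genes 9 had a row, none reached 1 TPM in all libraries, and Mir291a, Mir294 and Mir295 were listed at 0. The endothelial gene Mir126a, at 0.592%, 0.602%, 0.756% and 1.35% of miRNA reads, was also lowest in library 1 and highest in library 4. That order was thus not particular to the pluripotent and germ cell list, and the remaining marker lists did not share it. The part of any marked cell type in the level of the repeat-rich genes was not tested.

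**Figure D4:**
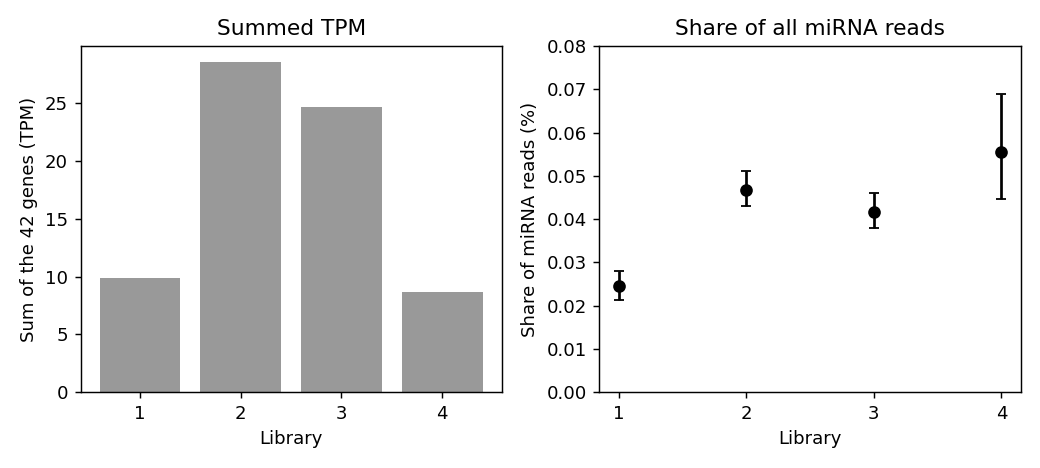
Summed TPM of the 42 genes per library (left, bars from 0) and the same genes as a percent of all miRNA reads (right, points with 95% Wilson intervals). Library 4 is lowest at 8.62 TPM on the left and highest at 0.0554% on the right, and library 1 is lowest on the right.

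Other imprinted miRNA genes from a fixed list of 12 either had means above those of all Sfmbt2 genes or were listed at 0. Mir541 and Mir379 of the Dlk1-Dio3 locus averaged 1549 and 535 TPM, Mir335 in Mest 803 TPM, Mir298 and Mir296 near Gnas 94.8 and 65.6 TPM and Mir483 in Igf2 58.2 TPM. These 6 reached 1 TPM in all 4 libraries and their means were all above that of Mir467a-9. The other 6, Mir127, Mir136, Mir410, Mir433, Mir434 and Mir675, were listed at 0, as were 24 of the 40 Sfmbt2 genes. For these 6 too, a listed 0 is no evidence that the miRNA was absent. Their overlap with other annotated genes was not examined here, so their zeros and those of the Sfmbt2 genes may differ in origin. The list holds no gene at the low levels of the 16 Sfmbt2 genes with reads, whose means reached at most 10.7 TPM.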

How the data were processed

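Small RNA of 4 libraries of 1 group was analysed. The deposited values are TPM, made by the authors from reads per gene; per the submitters' processing notes limma and the build mm10 (GRCm38) are named. Aligner, counter, annotation and the handling of multi-mapping reads were not given in the sources used here. Rows were joined by gene ID to RefSeq genes of GRCm38.p6 (2541 of 2976 matched; the 435 others could not be checked for overlap), and strand and host came from GENCODE vM21, with the same coordinates for all 42 genes. Dividing the product of TPM and gene length by its smallest nonzero value in a library gave whole numbers for 100% of nonzero miRNA values (tolerance 0.01), taken as reads. Simulated data drawn around the recovered counts tested the arithmetic of this step only. They could not test whether the smallest value is a single read. No count model was fitted, and 3 of 7 planned ratios could be run. Named genes were those with a mean of at least 1 TPM or reads in all libraries, the 3 highest per family, and copies at 0 that share a name. The members and lists were chosen with earlier results of these data known. Tools were matplotlib 3.10.9, scipy 1.17.1, numpy 2.4.6, pandas 2.3.3 and Python 3.11.15.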

Additional observations from a re-analysis of the deposited data

Results flagged for a closer look

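Among 22 sets of 4 library values examined by Dixon's test (95% level), 5 had a library far from the others. For a single set of normally distributed values chance gives about 1 in 20. The sets overlap, since the same genes enter in TPM, as reads per 1000000 miRNA reads and in sums. The count of 5 therefore does not measure an excess over chance. In TPM, Mir669a-4 was low in library 1 at 0.18, with 0.853 to 0.899 in the others, and Mir669e was high in library 2 at 1.51. As reads per 1000000 miRNA reads, a scale added after the data were seen, Mir669e was again high in library 2 at 34.0 (Wilson interval 24.7 to 46.9), with 2.26, 7.16 and 6.84 in libraries 1, 3 and 4. On that scale Mir467d was high in library 4 at 61.5, from 9 reads (32.4 to 117), with 30.6, 25.8 and 29.6 in libraries 1 to 3, whose intervals overlap it. Mir669a-12 was high in library 3 at 38.8 (28.3 to 53.3), with 27.2, 28.5 and 27.3 in the others, a difference within counting error. Mir669a-4, at 4.53, 14.7, 15.3 and 54.7 on that scale, did not pass Dixon's test there, but its interval in library 4 (27.7 to 108, from 8 reads) lay above those of libraries 1 to 3, which end at 11.6, 23.9 and 25.3.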

How the results depend on the processing

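The 3 ratios between families kept their sign under each alternative run, which were pseudocounts of 0.01 and 1 TPM, recovered reads, the filter and leaving out each library. Leaving out 1 library in turn gave 2.23 to 2.29 for miR-467 to miR-669, 5.32 to 5.75 for miR-467 to miR-466 and -3.52 to -3.03 for miR-466 to miR-669. With a pseudocount of 0.01 or 1 TPM the miR-467 to miR-466 ratio was 6.66 or 3.51 and that of miR-466 to miR-669 was -4.36 or -1.59. From recovered reads per 1000000 miRNA reads these were 7.34 and -5.17, with 0.1 added on that scale. The summed TPM without 1 library ranged from 14.4 to 21.01 for all 42 genes, 11.7 to 17.2 for miR-467, 2.41 to 3.46 for miR-669 and 0.136 to 0.324 for miR-466. With miRNA genes rescaled to sum to 1000000 per library the means became 398, 327, 67.1 and 4.22 in the same order. This divides each library by its own miRNA sum and reorders them, with all 42 genes at 232, 435, 399.9 and 526 in libraries 1 to 4. The count of genes at 1 TPM or more in all libraries, 1 as reported, was 8 for any reads in all libraries, 4 for a mean of at least 1 TPM, 2 for at least 10 reads in all libraries, 2 with copies summed by name and 4 with miRNA genes rescaled to the median library, both of the latter chosen after seeing the data. It was 1 to 3 without 1 library, 2 without library 1 and 3 without library 4. The Mir669e mean rests on library 2, and those of Mir467a-5, Mir467a-1 and Mir467a-10 on 1 library each. No miR-466 gene passed a mean of 0.1 TPM, so that filter gave no miR-466 value. The 3 ratios with miR-297 and the ratio to genes outside Sfmbt2 were not run, since those genes had no row or no reads, and leaving out genes that overlap another row removed none. No paired analysis was possible because there was 1 group.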
